A study of Mus musculus with 10 samples.

Results

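The genes described here encode the secreted Wnt proteins, the receptors that bind them at the cell surface, and the secreted proteins that block or amplify Wnt binding, measured by mRNA sequencing in mouse skin. They were chosen by name: gene symbols beginning with Wnt, Fzd, Sfrp or Dkk followed by a number, together with Frzb, Wif1, Axin2, Lrp5, Lrp6, Ror1, Ror2, Ryk, Rspo1 to Rspo4 and Notum, where at least 50 reads were counted over the 10 libraries. Of 20611 gene symbols, 50 matched these names and 45 reached the read minimum. The 5 left out had summed counts of 35 (Dkk1), 10 (Wnt8a), 8 (Wnt1), 5 (Wnt8b) and 3 (Dkk4), and the members just inside the minimum were Wnt9b with 99 and Wnt7a with 136. The 45 members comprise 16 Wnt ligands, 10 Frizzled receptors, 5 co-receptors or other Wnt receptors (Lrp5, Lrp6, Ror1, Ror2 and Ryk), 6 antagonists that bind Wnt proteins themselves (Sfrp1, Sfrp2, Sfrp4, Sfrp5, Frzb and Wif1), 3 other antagonists (Dkk2, Dkk3 and Notum), 4 R-spondins and the feedback gene Axin2.

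Skin from 5 Klk6+ mice was compared with skin from 5 control mice labelled WT, with 3 males (replicates 1 to 3) and 2 females (replicates 4 and 5) in each genotype. Klk6+ mice carried a Tetos-Klk6 transgene for Myc/His-tagged mouse Klk6, a secreted trypsin-like protease, together with the K5-tTA driver, in which the bovine Keratin 5 promoter expresses a tetracycline transactivator in keratinocytes of the epidermis and in certain further stratified epithelia. In this Tet-off system the transgene is active without doxycycline. The mice were bred on doxycycline, because none carrying both transgenes were born without it, and both lines were backcrossed to C57BL/6, with animals used from the F4 generation onward. Per the labels' protocols, Klk6+ mice were returned to doxycycline chow at 10 to 11 weeks, shortly before they would have stopped eating, and skin was taken at 14 to 16 weeks of age; no schedule for the controls was found in the labels. Controls were littermates with wild-type alleles or with 1 of the 2 transgenes, which alone does not express Klk6, and the labels do not say which control had which.

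Wnt proteins are lipid-modified signals that act over short distances. Binding of a Wnt to a Frizzled receptor and to Lrp5 or Lrp6 stabilises β-catenin, which enters the nucleus and activates genes such as Axin2 together with TCF/LEF factors, whereas other Wnt, Frizzled, Ror and Ryk combinations act through planar cell polarity or calcium. Secreted Frizzled-related proteins and Wif1 bind Wnt proteins outside the cell, Dickkopf proteins bind Lrp5 and Lrp6, Notum removes the lipid from Wnt proteins, and R-spondins raise the amount of receptor at the surface. In skin the pathway is known for starting hair follicle development, for driving the growth phase of the hair cycle and for maintaining epidermal stem cells, with ligands made in both epidermis and dermis.

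Each mouse gave 1 library, with total counts of 26521019 to 41970272. The first principal component separated the genotypes and held 78.3% of the variance; the second held 7.85% and placed Klk6+ 3 and Klk6+ 5 apart from the other Klk6+ libraries, so calls that change without both are stated beside them. Klk6 itself stood at 12.7 to 26.5 CPM (read counts scaled to a common, normalized library total) in WT and at 10293 to 14773 CPM in Klk6+, and 10 of 10 libraries matched their sex label. Keratinocyte and fibroblast markers were present in all 10 libraries: Krt5 ranged over 1288 to 3502 CPM across WT and 3926 to 6236 CPM in Klk6+, and Col1a1 over 2036 to 12809 CPM across WT and 775 to 2156 CPM in Klk6+.

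Most of the Wnt genes that changed were lower in Klk6+ skin, with wide differences among the secreted Wnt-binding antagonists: Sfrp4 was 36.2-fold lower, Sfrp2 12.2-fold lower and Frzb 8.66-fold lower. Among ligands Wnt2 (17.3-fold lower) and Wnt16 (5.13-fold lower) fell furthest, while Wnt4 (2.12-fold higher) and Wnt10a (1.96-fold higher) rose; among Frizzled receptors Fzd4 fell (5.36-fold) and Fzd6 rose (2.52-fold). All 45 members were tested, by edgeR's quasi-likelihood test with sex as a covariate and Benjamini-Hochberg adjustment over 14861 genes. At adjusted p below 0.05, 21 members fell, 4 rose and 20 did not pass; without Klk6+ 3 and 5, 21 fell and 6 rose. The genotypes differed across the transcriptome: 72.8% of all genes tested were called, 35.1% lower and 37.7% higher, so the share of members called in either direction was below this background and the share called lower was above it. A fall of at least 2-fold was called for 15 members (background 20.5%) and a rise of at least 2-fold for 3 members, Fzd6, Wnt4 and Rspo4 (background 15.7%). In 17 members all 5 Klk6+ libraries lay below all 5 WT libraries (background 27.0%), and in 2 members, Wnt4 and Fzd6, all lay above (background 30.1%); over both directions the background was 57.0%. The median log2 fold change was -0.53 over the 45 members and 0.040 over all genes tested. These are bulk samples, in which fewer cells of a type and less RNA per cell cannot be told apart.

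**Figure D1:**
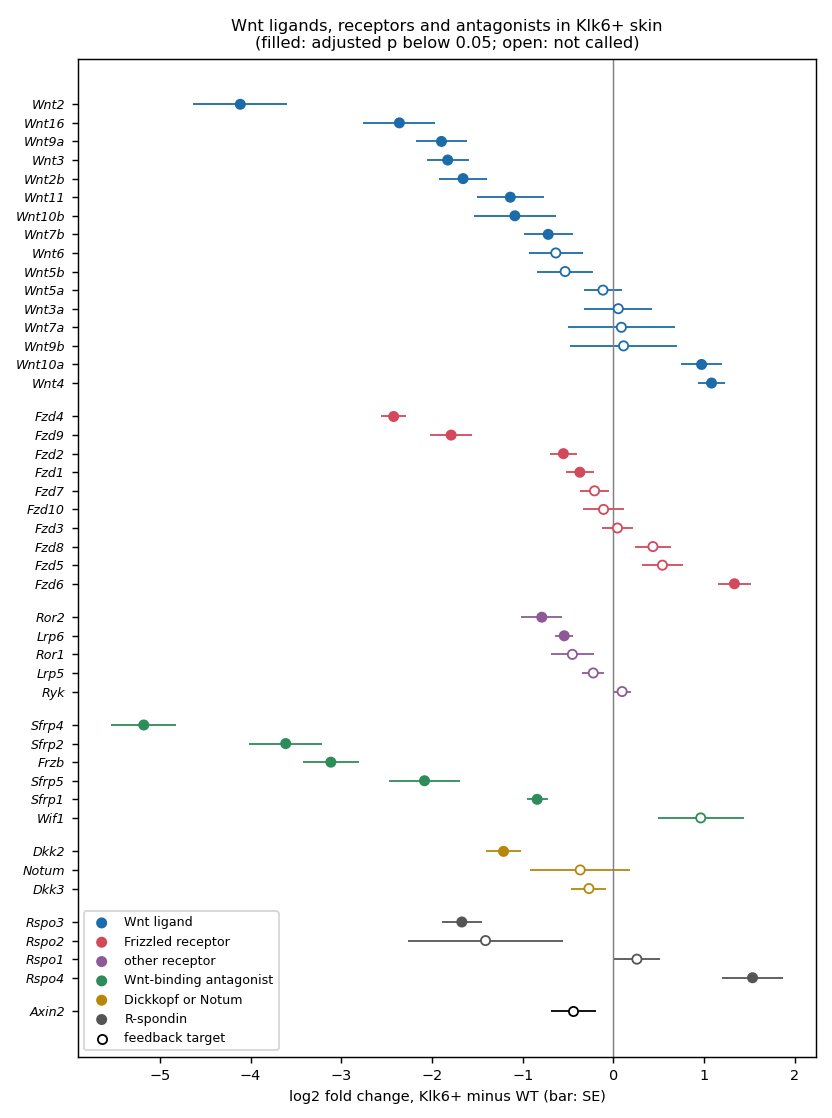
Log2 fold change of each of the 45 members, Klk6+ minus WT, from the edgeR fit with sex as a covariate, in blocks by role. Points are estimates, horizontal bars are the standard error, filled points have an adjusted p below 0.05 and open points do not. The Wnt-binding antagonists hold the lowest value (Sfrp4, -5.18) and the R-spondins the highest (Rspo4, 1.53).

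**Figure D2:**
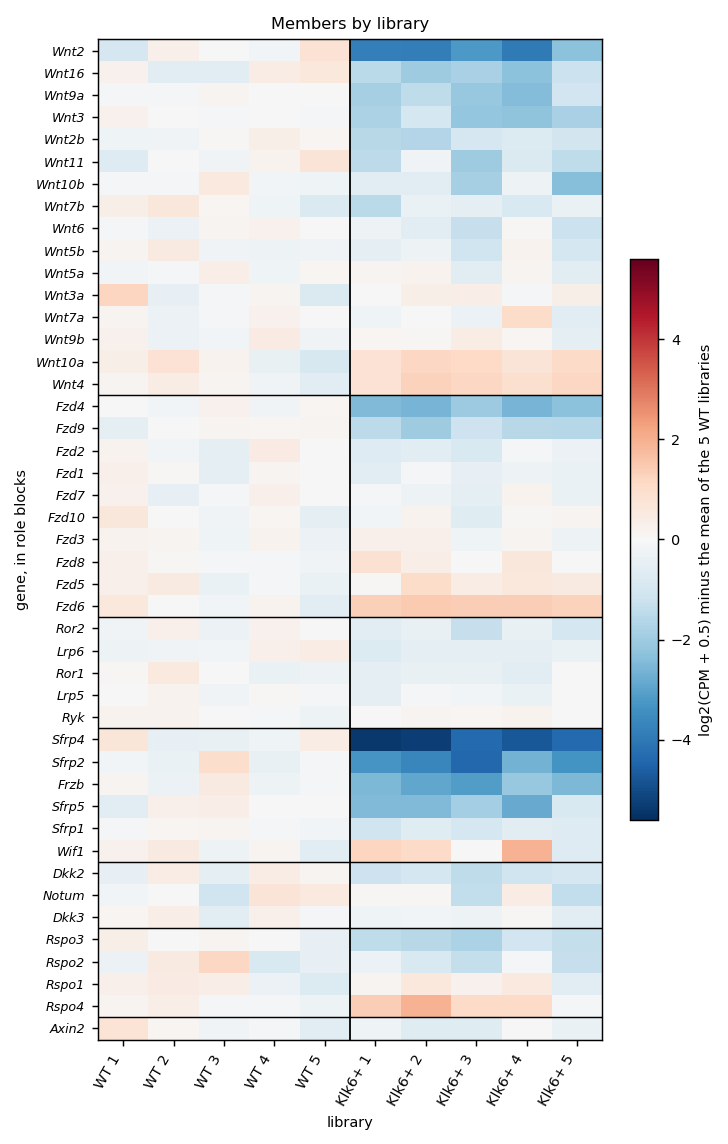
Level of each member (rows, in role blocks) in each library (columns), as log2(CPM + 0.5) minus the mean of the 5 WT libraries. Blue is below and red above the WT mean, and the vertical line separates WT from Klk6+. Sfrp4, Sfrp2, Frzb and Wnt2 are blue in all 5 Klk6+ libraries, and Fzd6 and Wnt4 are red in all 5, whereas Notum, Rspo2 and Wnt10b are lowest in Klk6+ 3 and Klk6+ 5.

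Promoter sequence was used to ask what the members share beyond their names. The 250 bases before RefSeq's transcription start were read from its GRCm38.p6 table, which held 33 windows for 30 of the 45 members. They are shown for the 3 members with a window that fell most (Wnt2, Sfrp2 and Frzb), 1 that rose (Wnt4), the feedback gene Axin2 and 1 window that holds a match to the TCF/LEF core (Wnt11), 5′ to 3′ on the gene's strand, with capitals marking the match: Sfrp2 at chr3:83766071-83766320 (plus strand), Frzb at chr2:80447397-80447646 (minus strand), Wnt2 at chr6:18030446-18030695 (minus strand), Wnt4 at chr4:137277385-137277634 (plus strand), Axin2 at chr11:108920099-108920348 (plus strand) and Wnt11 at chr7:98834862-98835111 (plus strand).
Sfrp2: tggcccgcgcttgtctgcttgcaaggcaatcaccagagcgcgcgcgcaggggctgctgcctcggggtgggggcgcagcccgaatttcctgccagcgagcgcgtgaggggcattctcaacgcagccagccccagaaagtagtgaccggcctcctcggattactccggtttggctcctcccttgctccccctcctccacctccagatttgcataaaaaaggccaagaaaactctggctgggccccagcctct
Frzb: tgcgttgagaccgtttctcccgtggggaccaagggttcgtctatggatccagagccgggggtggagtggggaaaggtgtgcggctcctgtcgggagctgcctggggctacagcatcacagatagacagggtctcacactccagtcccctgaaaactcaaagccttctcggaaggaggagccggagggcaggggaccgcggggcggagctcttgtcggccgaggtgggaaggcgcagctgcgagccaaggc
Wnt2: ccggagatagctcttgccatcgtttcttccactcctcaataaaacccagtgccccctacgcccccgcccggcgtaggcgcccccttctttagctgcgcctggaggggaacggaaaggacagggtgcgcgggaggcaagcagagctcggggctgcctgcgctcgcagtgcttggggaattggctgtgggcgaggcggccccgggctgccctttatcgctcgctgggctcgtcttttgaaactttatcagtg
Wnt4: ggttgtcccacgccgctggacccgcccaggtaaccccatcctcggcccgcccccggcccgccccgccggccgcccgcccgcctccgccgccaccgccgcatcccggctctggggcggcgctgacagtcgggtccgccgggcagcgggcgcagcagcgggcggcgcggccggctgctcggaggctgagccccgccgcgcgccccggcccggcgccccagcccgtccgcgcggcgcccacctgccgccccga
Axin2: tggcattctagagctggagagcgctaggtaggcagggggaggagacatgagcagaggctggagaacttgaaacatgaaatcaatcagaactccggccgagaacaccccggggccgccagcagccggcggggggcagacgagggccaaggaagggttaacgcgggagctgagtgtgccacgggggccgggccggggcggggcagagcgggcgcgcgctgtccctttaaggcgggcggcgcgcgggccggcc
Wnt11: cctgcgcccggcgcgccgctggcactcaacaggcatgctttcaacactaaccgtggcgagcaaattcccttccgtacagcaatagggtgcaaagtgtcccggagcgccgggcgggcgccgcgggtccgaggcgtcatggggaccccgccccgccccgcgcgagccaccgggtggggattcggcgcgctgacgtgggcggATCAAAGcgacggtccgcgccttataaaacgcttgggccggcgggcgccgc

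The motif searched was CTTTGAT or CTTTGTT, the core that TCF and LEF factors recognise, on both strands. It was present in 3 of 33 member windows (9.09%), those of Fzd7, Wnt5b and Wnt11, and in 2648 of all 32851 windows (8.06%). The Wnt11 match ATCAAAG lies on the minus strand, 51 bases before the start, and the windows printed for Sfrp2, Frzb, Wnt2, Wnt4 and Axin2 do not contain these letters. The median member window was 68.0% G or C with 22 CpG dinucleotides, against 52.4% and 6 over all windows. Among the sequences printed, the G or C content was 63.6% for Sfrp2, 64.4% for Frzb, 63.6% for Wnt2, 85.2% for Wnt4, 69.2% for Axin2 and 70.8% for Wnt11. A match is a description of letters and not evidence of binding. By the GENCODE gene positions, the windows printed for Frzb, Wnt2 and Wnt4 lie partly inside the gene, as do those of some other members.

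The Wnt ligands divided by direction. Of 16, 8 fell, 2 rose and 6 did not pass, with a median log2 fold change of -0.68 (background 35.1% lower and 37.7% higher). Wnt2 (chr6:17988940-18030585, GRCm38), a ligand of the β-catenin branch, stood at 6.13, 14.9, 12.1, 10.7 and 21.4 CPM in WT 1 to 5 and at 0.397, 0.348, 0.842, 0.309 and 2.05 CPM in Klk6+ 1 to 5. The groups did not overlap, the highest Klk6+ library being Klk6+ 5, and Wnt2 fell by 4.11 ± 0.52 on the log2 scale, edgeR adjusted p = 4.74e-05. Without Klk6+ 5 the log2 fold change was -4.75, and without Klk6+ 3 and 5 it was -5.20. Wnt3 (chr11:103774150-103817957), a β-catenin branch ligand of hair follicle epithelium, had 26.3, 21.8, 20.5, 21.7 and 20.2 CPM in the WT libraries and 6.09, 11.0, 4.45, 4.23 and 5.85 CPM in the Klk6+ libraries. Klk6+ 2 was highest of the Klk6+ libraries but lay below every WT library, and Wnt3 fell by 1.83 ± 0.23 on the log2 scale, edgeR adjusted p = 5.44e-05. Wnt9a (chr11:59306928-59333552), known for its part in joint formation, was measured at 9.14, 8.71, 10.5, 9.54 and 9.44 CPM in WT and at 2.24, 3.17, 1.82, 1.36 and 4.21 CPM in Klk6+. It fell by 1.90 ± 0.28 on the log2 scale, edgeR adjusted p = 0.000151, with no overlap.

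The other 5 ligands that fell included Wnt7b, whose mean FPKM in WT (the authors' reads scaled to transcript length) was the highest of the ligands. Wnt16 (fell by 2.36 ± 0.40 on the log2 scale, edgeR adjusted p = 0.000354) ranged over 1.94 to 5.32 CPM across WT and 0.278 to 1.16 CPM in Klk6+, and Wnt2b (fell by 1.66 ± 0.27 on the log2 scale, edgeR adjusted p = 0.000268) over 1.68 to 2.75 and 0.348 to 1.02 CPM, both without overlap. Wnt11, a planar polarity ligand, fell by 1.14 ± 0.37 (edgeR adjusted p = 0.0177) with overlapping groups, and did not pass without Klk6+ 3 and 5 (adjusted p = 0.0714). Wnt10b, which promotes follicle growth, fell by 1.09 ± 0.45 (edgeR adjusted p = 0.0492), with 3.63, 3.55, 1.24, 4.57 and 0.708 CPM in Klk6+ 1 to 5 against 4.78 to 8.55 CPM in WT. That call was lost in 8 of the 10 fits that left out 1 library (all but those without Klk6+ 4 or Klk6+ 5), with adjusted p up to 0.0947 without WT 3, and its log2 fold change was -1.67 without Klk6+ 4 and -0.64 without Klk6+ 3 and 5. Wnt7b, another follicle ligand, fell by 0.72 ± 0.27 (edgeR adjusted p = 0.0336), ranging over 24.1 to 64.9 CPM across WT and 14.7 to 32.1 CPM in Klk6+. This call was lost without WT 1, 2, 3 or 4 or Klk6+ 2 or 3, with adjusted p up to 0.0763.

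Both ligands that rose are known from the epidermis. Wnt4 (chr4:137277489-137299726), made by basal keratinocytes, had 31.2, 37.8, 31.1, 24.4 and 18.6 CPM in WT 1 to 5 and 49.8, 69.0, 63.0, 51.7 and 63.2 CPM in Klk6+ 1 to 5. Every Klk6+ library was above every WT library, and Wnt4 rose by 1.08 ± 0.15 on the log2 scale, edgeR adjusted p = 9.62e-05. Wnt10a (chr1:74791516-74804179), needed for hair, teeth and sweat glands, stood at 24.1, 34.4, 22.0, 14.3 and 10.0 CPM in WT and at 34.3, 43.8, 41.7, 31.7 and 41.5 CPM in Klk6+. It rose by 0.97 ± 0.22 on the log2 scale, edgeR adjusted p = 0.00272, although WT 2 lay within the Klk6+ range. Of the 6 ligands that did not pass, Wnt5a, the main planar polarity ligand, had a log2 fold change of -0.12 ± 0.21, Wnt5b of -0.53 ± 0.31 and the epidermal ligand Wnt6 of -0.63 ± 0.30 (edgeR adjusted p = 0.633, 0.144 and 0.0796). Without Klk6+ 3 and 5 the Wnt5a value was 0.093. Wnt6 passed without Klk6+ 1 (adjusted p = 0.0411) or Klk6+ 4 (adjusted p = 0.0142), as a lower gene, and in DESeq2 and limma-voom. Wnt5b passed as lower without Klk6+ 4 (adjusted p = 0.00656). The low-level ligands Wnt3a (0.054 ± 0.38), Wnt7a (0.088 ± 0.59) and Wnt9b (0.11 ± 0.59) had no stable sign.

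The Frizzled receptors also held calls in both directions. Of 10, 4 fell, 1 rose and 5 did not pass, with a median of -0.16. The background over all genes tested was 35.1% lower and 37.7% higher, so the share that fell was near it. Fzd4 (chr7:89404355-89413134), a receptor for Wnt proteins and Norrin known for its role in blood vessels, was at 107, 96.6, 127, 95.3 and 117 CPM in WT 1 to 5 and at 19.1, 17.4, 26.1, 17.4 and 21.4 CPM in Klk6+ 1 to 5. The groups were far apart, the lowest WT library lying well above the highest Klk6+ library, and Fzd4 fell by 2.42 ± 0.14 on the log2 scale, edgeR adjusted p = 5.26e-07. Fzd6 (chr15:39006034-39038188), a planar polarity receptor that orients hair follicles in mice, moved the other way, from 52.5, 34.1, 31.4, 39.5 and 22.6 CPM in WT to 87.2, 97.9, 91.6, 89.6 and 85.3 CPM in Klk6+. All Klk6+ libraries exceeded all WT libraries, and Fzd6 rose by 1.33 ± 0.18 on the log2 scale, edgeR adjusted p = 7.94e-05. Fzd9 (chr5:135248938-135251230), known for a role in bone formation, had 4.11, 6.14, 6.82, 6.50 and 6.81 CPM in WT and 1.81, 1.15, 2.42, 1.70 and 1.64 CPM in Klk6+. It fell by 1.79 ± 0.23 on the log2 scale, edgeR adjusted p = 5.62e-05, and WT 1, the lowest of its group, was still above Klk6+ 3, the highest of the other.

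Fzd1, Fzd2 and Fzd7 form a subfamily of related receptors. Fzd2 stood at 35.6, 27.3, 21.5, 43.0 and 30.9 CPM in WT and at 18.5, 20.1, 16.8, 28.9 and 24.6 CPM in Klk6+; it fell by 0.55 ± 0.15 on the log2 scale, edgeR adjusted p = 0.00647, with overlapping groups. Fzd1, the subfamily member of highest mean FPKM in WT, had 112, 97.2, 65.9, 104 and 91.0 CPM in WT and 60.1, 89.1, 68.2, 75.0 and 71.6 CPM in Klk6+; it fell by 0.37 ± 0.15 on the log2 scale, edgeR adjusted p = 0.0489, and the groups overlapped through WT 3. The Fzd1 call was lost in 7 of the 10 fits that left out 1 library (all but those without WT 3, Klk6+ 2 or Klk6+ 4), with adjusted p up to 0.106, and also in limma-voom and without Klk6+ 3 and 5. Fzd7 (-0.21 ± 0.16), Fzd10 (-0.11 ± 0.23), Fzd3, a partner of Fzd6 in planar polarity (0.044 ± 0.17), Fzd8 (0.44 ± 0.20) and Fzd5 (0.54 ± 0.23) did not pass. Fzd5 and Fzd8, which form another subfamily, were near the threshold (edgeR adjusted p = 0.0514 and 0.0677). Fzd5 passed as higher without WT 2 (adjusted p = 0.0275) or Klk6+ 1 (adjusted p = 0.0141) and in DESeq2 and without the low-count filter, and Fzd8 without Klk6+ 3 (adjusted p = 0.0231) or without both Klk6+ 3 and 5.

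Of the 5 co-receptors and other receptors 2 fell, none rose and 3 did not pass (background 35.1% lower and 37.7% higher). Their median log2 fold change was -0.45. Lrp6, which with Lrp5 carries the β-catenin signal across the membrane, had 119, 126, 130.3, 176 and 193 CPM in WT and 86.4, 101, 101, 100 and 114 CPM in Klk6+. It fell by 0.54 ± 0.10 on the log2 scale, edgeR adjusted p = 0.000721, with no overlap. Lrp5 stood at 101, 116, 88.9, 106 and 94.1 CPM in WT and at 69.6, 97.6, 89.4, 77.3 and 100.4 CPM in Klk6+, which did not pass (log2 fold change -0.22 ± 0.12, edgeR adjusted p = 0.123). It passed as lower without Klk6+ 5 (adjusted p = 0.0278) and without Klk6+ 3 and 5. Ror2, a receptor tyrosine kinase for Wnt5a, was at 6.50, 9.44, 5.86, 9.01 and 7.47 CPM in WT and at 4.65, 5.57, 2.82, 5.46 and 3.61 CPM in Klk6+. Every Klk6+ library was below every WT library, and Ror2 fell by 0.79 ± 0.22 on the log2 scale, edgeR adjusted p = 0.00905. Its relative Ror1 had 4.36, 6.31, 4.25, 3.10 and 3.25 CPM in WT and 2.64, 3.00, 2.92, 2.50 and 4.25 CPM in Klk6+ (log2 fold change -0.45 ± 0.24, edgeR adjusted p = 0.106), and passed as lower without Klk6+ 5 (log2 fold change -0.73, adjusted p = 0.00646) and without Klk6+ 3 and 5 (adjusted p = 0.0158). Ryk, a Wnt receptor with an inactive kinase domain, ranged over 144, 143, 122, 113 and 101 CPM in WT and 127, 138, 133, 140.3 and 123 CPM in Klk6+ (log2 fold change 0.10 ± 0.10, edgeR adjusted p = 0.382), and its groups overlapped throughout.

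Of the 6 secreted Wnt-binding antagonists 5 fell and none rose, and their median log2 fold change was -2.60. In those 5 the groups did not overlap. Of all genes tested 35.1% were called lower, and in 27.0% all Klk6+ libraries lay below all WT libraries. Sfrp4 (chr13:19623104-19632994) had 105, 48.0, 48.2, 55.7 and 87.3 CPM in WT 1 to 5 and 1.05, 1.22, 2.68, 1.91 and 2.68 CPM in Klk6+ 1 to 5. The highest Klk6+ value was a small part of the lowest WT value, and Sfrp4 fell by 5.18 ± 0.36 on the log2 scale, edgeR adjusted p = 1.19e-06. Sfrp2 (chr3:83766321-83774316), a product of dermal fibroblasts, stood at 56.5, 49.0, 125, 47.6 and 59.4 CPM in WT and at 5.84, 4.60, 2.55, 9.48 and 5.66 CPM in Klk6+. WT 3 was well above the other WT libraries, yet WT 4, the lowest, also exceeded every Klk6+ library, and Sfrp2 fell by 3.61 ± 0.40 on the log2 scale, edgeR adjusted p = 2.06e-05. Frzb (chr2:80411970-80447625), also named Sfrp3, was at 10.3, 7.34, 13.5, 7.46 and 8.93 CPM in WT and at 1.22, 0.801, 0.605, 1.73 and 1.23 CPM in Klk6+, and fell by 3.12 ± 0.31 on the log2 scale, edgeR adjusted p = 9.45e-06.

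Sfrp5 (fell by 2.08 ± 0.39 on the log2 scale, edgeR adjusted p = 0.000707) had 16.4, 31.4, 33.7, 26.6 and 25.4 CPM in WT and 4.31, 4.32, 6.53, 3.24 and 14.3 CPM in Klk6+, where Klk6+ 5 was the highest; without Klk6+ 3 and 5 the log2 fold change was -2.83. Sfrp1 (chr8:23411502-23449632), which is expressed in epidermis and hair follicle stem cells, changed least of the 5. It had 74.2, 87.0, 89.1, 76.4 and 72.5 CPM in WT and 36.0, 49.5, 39.5, 50.6 and 47.7 CPM in Klk6+, and fell by 0.84 ± 0.12 on the log2 scale, edgeR adjusted p = 9.62e-05. Wif1, which binds Wnt proteins through a domain unlike that of the Frizzled-related proteins, had 9.19, 11.2, 6.10, 8.66 and 4.78 CPM in WT and 18.3, 16.5, 7.61, 31.0 and 4.40 CPM in Klk6+. Klk6+ 1, 2 and 4 lay above all WT libraries and Klk6+ 5 below them, and the difference did not pass (log2 fold change 0.96 ± 0.48, edgeR adjusted p = 0.0912). It passed as higher without Klk6+ 5 (adjusted p = 0.0235) and without Klk6+ 3 and 5 (log2 fold change 1.38, adjusted p = 0.00357). Without Klk6+ 4, its highest library, the log2 fold change was 0.26 (adjusted p = 0.547).

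Most fibroblast markers were also lower in Klk6+ skin. Of 12 fibroblast markers 11 fell and 1, Crabp1, rose; their median log2 fold change was -1.70 and the lowest was -2.55 (Mfap5). Their summed level was 12993 to 41757 CPM across WT and 4855 to 9755 CPM in Klk6+, and no marker was at 0 in any library. Sfrp4, Sfrp2 and Frzb, at -5.18, -3.61 and -3.12, were each below the lowest of the 12 markers. Each lay within the range of the skeletal muscle markers (-5.20 to -2.04). Sfrp1 at -0.84 was nearer to Pdgfra (-0.81 ± 0.21). These differences were not tested. Other tissue markers fell as well: 16 of 16 for skeletal muscle (median -3.24; summed level 62869 to 94806 CPM across WT and 4847 to 9795 CPM in Klk6+), 7 of 7 for adipocytes (median -1.58), 9 of 10 for endothelium (median -0.78), 9 of 9 for smooth muscle and pericytes (median -0.87), 8 of 8 for Schwann cells and nerve (median -1.82), 4 of 6 for T cells (median -0.98) and 8 of 8 for macrophages (median -2.10). Neutrophil markers rose in 6 of 7 (median 4.61), with 55.1 to 87.3 CPM across WT and 6018 to 10064 CPM in Klk6+ in sum. Markers of proliferation rose in 8 of 8 (median 3.08) and of sebaceous gland in 9 of 9 (median 2.47), and of 7 melanocyte markers 5 rose and 1 fell (median 2.21). Of 7 suprabasal keratinocyte markers 4 rose and 2 fell (median 1.29), and of 7 basal keratinocyte markers 3 rose, 2 fell and 2 did not pass (median 0.44, lowest -3.11 for Krt15). The basal list summed to 3566 to 9626 CPM across WT and 13212 to 19201 CPM in Klk6+. Over all genes tested 35.1% fell and 37.7% rose. The part of these marker shifts in the differences of the Wnt genes was not tested.

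Antagonists that act on the receptor or on the Wnt lipid changed in 1 of 3 cases (background 72.8% in either direction). Dkk2 (chr3:132085292-132180304), which binds Lrp5 and Lrp6, stood at 10.8, 19.6, 10.4, 19.7 and 16.3 CPM in WT and at 6.29, 7.25, 5.19, 6.67 and 7.56 CPM in Klk6+. All Klk6+ libraries lay below all WT libraries, and Dkk2 fell by 1.21 ± 0.20 on the log2 scale, edgeR adjusted p = 0.00028. Dkk3, a divergent member of the family, had 57.7, 70.0, 35.0, 65.4 and 50.2 CPM in WT and 45.6, 48.6, 44.7, 57.2 and 34.5 CPM in Klk6+ (log2 fold change -0.27 ± 0.19, edgeR adjusted p = 0.227), and passed as lower without WT 3 (adjusted p = 0.0258), its lowest WT library. Notum, the enzyme that removes the Wnt lipid, had 1.93, 2.19, 0.718, 3.89 and 3.43 CPM in WT and 2.32, 2.33, 0.526, 3.03 and 0.522 CPM in Klk6+ (log2 fold change -0.37 ± 0.55, edgeR adjusted p = 0.564), and without Klk6+ 3 and 5 its log2 fold change was 0.18. Of its exon bases 29.4% are shared with the antisense gene Notumos and 8.72% with Myadml2os, and the library kit does not mark strand, so these reads cannot be assigned to one of them.

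The 4 R-spondins split, with 1 fall, 1 rise and 2 that did not pass (background 35.1% lower and 37.7% higher). Rspo3 (chr10:29452416-29535867), made by stromal cells, had 7.28, 5.83, 6.49, 5.59 and 4.001 CPM in WT 1 to 5 and 1.84, 1.60, 1.34, 2.44 and 1.94 CPM in Klk6+ 1 to 5. The groups did not overlap, and Rspo3 fell by 1.67 ± 0.22 on the log2 scale, edgeR adjusted p = 7.41e-05; 13.1% of its exon bases overlap an antisense gene. Rspo4, known for its requirement in nail formation, had 0.965, 1.20, 0.718, 0.761 and 0.597 CPM in WT and 2.95, 4.56, 2.26, 2.28 and 0.782 CPM in Klk6+. It rose by 1.53 ± 0.33 on the log2 scale, edgeR adjusted p = 0.00195, and only Klk6+ 5 fell within the WT range. Rspo1 was at 6.38, 7.13, 6.70, 3.95 and 2.84 CPM in WT and at 5.67, 8.05, 6.13, 7.78 and 3.24 CPM in Klk6+ (log2 fold change 0.26 ± 0.26, edgeR adjusted p = 0.379). Rspo2, a product of the dermal papilla that promotes the hair growth phase, had 0.551, 1.37, 2.48, 0.234 and 0.478 CPM in WT and 0.567, 0.244, 0.0263, 0.772 and 0.0373 CPM in Klk6+. Values ranged widely within each genotype and overlapped (log2 fold change -1.41 ± 0.85, edgeR adjusted p = 0.158), and passed as lower without Klk6+ 4 (log2 fold change -2.53, adjusted p = 0.0122), whereas without Klk6+ 3 and 5 the log2 fold change was -0.79 (adjusted p = 0.369).

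Several members were uneven among the Klk6+ mice. Notum, Wif1, Wnt10b, Rspo2 and Wnt6 had their lowest Klk6+ values in Klk6+ 3 and Klk6+ 5, and Wnt5a did too (19.2, 20.1, 10.9, 19.3 and 11.4 CPM in Klk6+ 1 to 5). So did Fzd3, Fzd7, Fzd8, Wnt5b, Ror2, Dkk3 and Rspo4. These 2 libraries were singled out by a principal component of all genes tested. How many of all genes share the pattern was not counted, so it cannot be called particular to the members. The follicle ligand Wnt7b did not (14.7, 32.1, 28.5, 23.1 and 32.1 CPM in Klk6+ 1 to 5). Nor did Wnt10a, which is needed for hair. The summed level of 21 hair matrix and hair shaft markers, genes of the growing hair, was 322, 134, 83.1, 47.5 and 439 CPM in WT 1 to 5 and 791, 5960.4, 64.9, 1117 and 80.1 CPM in Klk6+ 1 to 5, and it was likewise lowest in those 2 Klk6+ libraries. Of these 21 markers 6 rose, none fell and 15 did not pass. Over all genes tested 37.7% rose and 35.1% fell. Of 9 hair follicle stem cell markers 5 fell and 1 rose, with 1762 to 3703 CPM across WT and 359 to 623 CPM in Klk6+ in sum, and of 10 dermal papilla markers 3 fell and 3 rose. Whether hair content has a part in the members' differences was not tested.

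Axin2, which brakes the pathway and is itself a β-catenin target, did not pass. It stood at 43.9, 27.4, 21.8, 24.7 and 16.4 CPM in WT and at 21.6, 15.7, 15.9, 25.2 and 19.3 CPM in Klk6+ (log2 fold change -0.44 ± 0.25, edgeR adjusted p = 0.137). WT 1 was the highest library, and WT 3, 4 and 5 lay within the Klk6+ range. It passed as lower without WT 5 (log2 fold change -0.63, adjusted p = 0.0329) or without Klk6+ 4 (log2 fold change -0.64, adjusted p = 0.0391). Without WT 1, its highest library, the log2 fold change was -0.23 (adjusted p = 0.287). Over 11 other β-catenin target genes, 4 rose and 4 fell, with a median log2 fold change of 0.49. Both shares were near the background of 37.7% higher and 35.1% lower over all genes tested. The 4 of smallest p are named here. Cd44, a cell adhesion receptor, rose by 1.78 ± 0.22, Tbx3, a transcription factor, fell by 1.99 ± 0.14, and Tnfrsf19, a receptor of hair follicle cells, fell by 1.71 ± 0.22. Tcf4, which encodes the E-protein ITF2, fell by 0.89 ± 0.078.

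**Figure D3:**
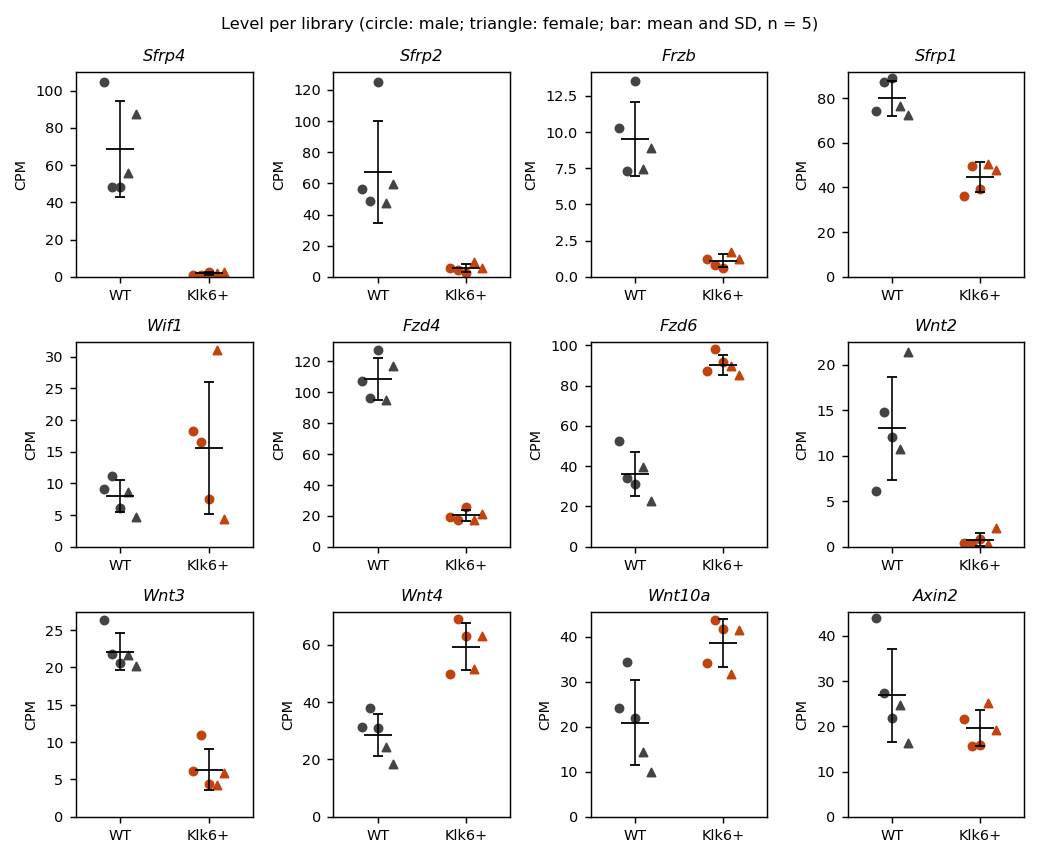
CPM (y axis, linear from 0, 1 scale per gene) in each library of WT and Klk6+ (x axis) for 12 members. Circles are male and triangles female mice, and bars give the mean and SD of 5 mice. Fzd4, Sfrp4, Sfrp2, Frzb, Wnt2 and Wnt3 do not overlap between genotypes and are lower in Klk6+, and Wnt4 and Fzd6 do not overlap and are higher.

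The make-up of each family was compared between genes with the authors' FPKM values, which are scaled to transcript length (mean ± SD, n = 5 per genotype). These are levels and shares as description, with no test. In WT the highest member was Sfrp4 (38.1 ± 14.9 FPKM), followed by Ryk (35.0 ± 5.04), Sfrp2 (32.2 ± 15.4), Fzd4 (26.8 ± 3.42) and Fzd1 (19.4 ± 3.85). Neighbours among the first 4 differed by less than the larger of their SDs, whereas Fzd4 and Fzd1 differed by more. In Klk6+ the order was Ryk (37.4 ± 2.39 FPKM), Fzd6 (20.1 ± 0.715), Wnt10a (18.9 ± 2.202), Lrp5 (15.1 ± 2.18), Fzd1 (15.1 ± 2.04) and Wnt4 (14.1 ± 1.68), where Fzd6 and Wnt10a, and likewise Lrp5, Fzd1 and Wnt4, differed by less than the larger SD. Sfrp4 went from rank 1 in WT to rank 30 of 45 in Klk6+, at 1.06 ± 0.439 FPKM. The lowest members were Wnt9b and Wnt7a in WT and Wnt9b, Rspo2 and Wnt7a in Klk6+.

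Summed over 16 ligands, the FPKM was 56.2 to 74.0 in WT and 48.5 to 63.7 in Klk6+, with overlap. Over the 6 Wnt-binding antagonists it was 87.3 to 128 in WT and 17.2 to 32.8 in Klk6+, without overlap, so that the ratio of antagonist to ligand FPKM was 1.18 to 1.98 in WT and 0.329 to 0.601 in Klk6+. Within the ligands, Wnt10a made up 15.5% ± 5.06 in WT and 34.2% ± 3.27 in Klk6+, and Wnt4 10.5% ± 1.56 in WT and 25.5% ± 1.81 in Klk6+. Wnt2 made up 9.36% ± 4.70 in WT and 0.643% ± 0.583 in Klk6+. Within the Frizzled receptors, Fzd4 made up 29.6% ± 5.65 in WT and 7.06% ± 1.78 in Klk6+, and Fzd6 8.58% ± 1.86 in WT and 27.9% ± 2.09 in Klk6+, while Fzd1 held 21.1% ± 2.89 in WT and 20.8% ± 2.13 in Klk6+. Among the antagonists, Sfrp4 made up 35.8% ± 11.7 in WT and 4.78% ± 2.50 in Klk6+, Sfrp1 15.7% ± 2.86 in WT and 40.5% ± 5.91 in Klk6+, and Wif1 3.30% ± 1.42 in WT and 27.1% ± 13.8 in Klk6+.

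**Figure D4:**
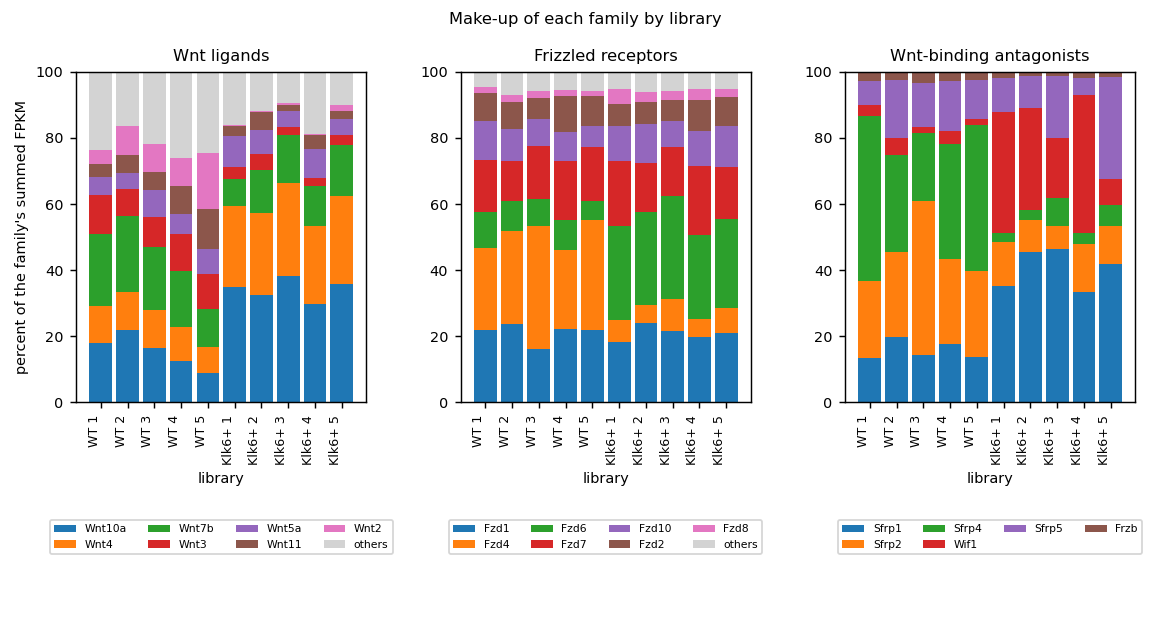
Share of each gene in the summed FPKM of its family, in percent, for the 10 libraries (x axis); each stacked bar is 1 mouse. Wnt10a and Wnt4 take a larger share of ligands in the Klk6+ bars (means 34.2% and 25.5%) than in the WT bars (15.5% and 10.5%), Fzd6 replaces Fzd4 as the larger of the pair, and Sfrp1, Wif1 and Sfrp5 together make up most of the antagonist bars in Klk6+.

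Most members had the same direction in males and females. The genotype effect had the same sign in both sexes for 35 of 45 members, and this share was not counted over all genes. In males 23 members were called (background 64.4%), and in females 19 (background 59.6%). The difference between the sexes was tested as a genotype-by-sex interaction with 3 males and 2 females per genotype. In edgeR 0 of 45 members passed, as did 0 of 14861 genes; at unadjusted p below 0.05 there were 3 members, Wnt10a, Rspo3 and Lrp6, beside 9.49% of all genes, and DESeq2 and limma-voom also called 0 members. The 2 members of smallest p were Wnt10a, with a log2 fold change of 0.57 ± 0.21 in males and 1.59 ± 0.26 in females (edgeR adjusted p of the interaction = 0.378), and Rspo3, with -2.03 ± 0.23 in males and -1.13 ± 0.28 in females (adjusted p = 0.461). Of the 10 members with opposite signs, 2 (Axin2 and Ror1) passed in males and not in females: Axin2 at -0.81 ± 0.28 in males and 0.12 ± 0.34 in females, and Ror1 at -0.80 ± 0.25 in males and 0.083 ± 0.31 in females. Their interaction did not pass (edgeR adjusted p = 0.563 and 0.54). The antagonists and receptors with the widest differences were alike in direction: Sfrp4 was -5.32 ± 0.48 in males and -4.96 ± 0.58 in females, and Fzd4 -2.40 ± 0.19 in males and -2.45 ± 0.23 in females.

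**Figure D5:**
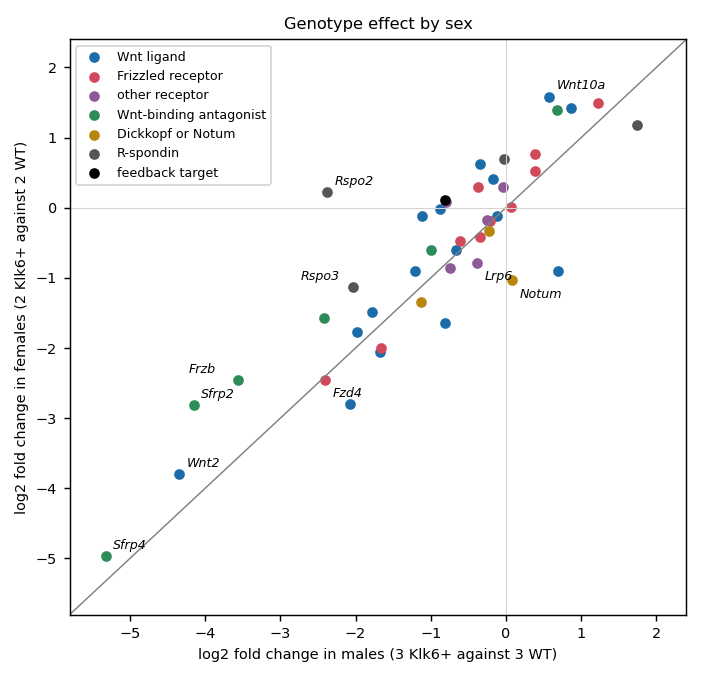
Log2 fold change (Klk6+ minus WT) in males (x axis, 3 mice per genotype) against females (y axis, 2 mice per genotype) for the 45 members, with the line of equality. Sfrp4, Wnt2, Sfrp2 and Frzb lie at the lower left and Fzd6, Wnt4 and Rspo4 at the upper right; 35 members have the same sign in both sexes.

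The rest of the pathway was read from 5 lists of 74 genes, of which 73 were tested: 21 rose, 26 fell and 26 did not pass, with a median log2 fold change of -0.10. Of the 4 genes for Wnt secretion 3 rose and 1 fell. Porcn, the enzyme that attaches the Wnt lipid, rose by 2.21 ± 0.18 on the log2 scale, edgeR adjusted p = 3.05e-06, and the cargo receptors Tmed5 and Tmed2 rose by 1.09 ± 0.11 and 0.68 ± 0.081, whereas Wls, the Wnt carrier, fell by 0.33 ± 0.088. Of 17 genes for receptor turnover and cell-surface modulators 6 fell and 1 rose. The heparan sulphate proteoglycan Gpc3 fell by 2.93 ± 0.25, and Reck and Adgra2, which together present Wnt7 proteins to Frizzled, also fell: Reck fell by 2.07 ± 0.14 and Adgra2 fell by 1.499 ± 0.17. The planar polarity receptor Ptk7 rose by 1.27 ± 0.17. Of 27 cytoplasmic and nuclear mediators 9 fell and 8 rose. Pygo1, a β-catenin co-activator, fell by 2.24 ± 0.27, Apc2, a homologue of the Apc scaffold, fell by 2.18 ± 0.27, and Tcf7l1, a repressive TCF factor of stem cells, fell by 1.61 ± 0.17, while the co-repressor Tle3 rose by 0.92 ± 0.12. Of 14 genes of the planar polarity and calcium branch 6 fell and 5 rose. The core polarity genes Vangl1 and Celsr2 rose by 1.30 ± 0.11 and 1.06 ± 0.20, beside Fzd6, and the calcium-branch genes Nfatc1 and Plcb4 were lower (Nfatc1 fell by 1.27 ± 0.22 and Plcb4 fell by 0.66 ± 0.10). Each list held calls in both directions, and the shares called are read against the same backgrounds of 37.7% higher and 35.1% lower.

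The counting leaves some members uncertain. Exons of 9 members (Axin2, Fzd5, Fzd6, Notum, Rspo3, Sfrp2, Wnt11, Wnt5a and Wnt7b) overlap a gene on the opposite strand, by between 3.16% (Fzd6) and 29.4% (Notum) of exon bases per overlapping gene, and without strand the reads there cannot be separated.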

How the data were processed

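RNA from whole skin was sequenced after polyA selection with a kit that does not mark strand, as 50-cycle single-end reads, per the labels' protocols. For each mouse the authors deposited read counts (whole numbers per gene symbol, not normalized) and FPKM values. The submitters' processing notes name Cufflinks 2.2.1, TopHat2, HTSeq and SAMtools, with mouse build GRCm38 (mm10). Annotation version and strand setting: not given in the sources used here.

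Read counts were tested with edgeR 4.0.16 in R 4.3.3 (filterByExpr minimum count 10, TMM factors, quasi-likelihood F test, model of sex and genotype), with Benjamini-Hochberg adjustment over 14861 genes and a threshold of 0.05; sex effects came from a model of 4 genotype-by-sex means. Log2 fold changes are given ± SE. CPM use the TMM-scaled totals. The fits were tested on simulated data in which few genes changed, in equal numbers up and down. Differences as widespread as those of these data were not simulated. DESeq2 1.42.0, limma 3.58.1 (voom), other scalings, no low-count filter, and each library left out were the alternatives; leaving out Klk6+ 3 and 5 was added after seeing the data. The authors' FPKM served to compare levels between genes. Each label names a separate mouse, and no 2 libraries of a genotype agreed within sampling noise.

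The members and gene lists were chosen with earlier results of these data known. Values by library are given for the 4 members of smallest p and the member of highest mean level in each role. A few others (Sfrp5, Wif1, Wnt10b, Wnt5a and Wnt7b) were chosen after their values were seen. Pathway genes are the 4 of smallest p per list. Gene positions are from GENCODE M21 (GRCm38), where all 45 members matched, and promoters from RefSeq.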

Additional observations from a re-analysis of the deposited data

Results flagged for a closer look

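In each genotype's 5 libraries, a library was singled out when its gap to the nearest other library exceeded 0.71 of the group's range (Dixon's 95% critical value). Of 90 groups (45 members in 2 genotypes) 7 met this, and chance gives about 1 in 20 groups.

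Sfrp2 in WT 3 was high at 125 CPM (the other WT libraries at 47.6 to 59.4 CPM), and Wnt10b in WT 3 was high at 8.55 CPM (others 4.78 to 5.51 CPM). Both are in the same mouse. The mouse WT 1 was highest of WT for Wnt3, at 26.3 CPM (others 20.2 to 21.8 CPM), and the lowest for Fzd9, at 4.11 CPM (others 6.14 to 6.82 CPM). In Klk6+ skin, Wnt3 was high in Klk6+ 2 at 11.0 CPM (others 4.23 to 6.09 CPM), Ror1 in Klk6+ 5 at 4.25 CPM (others 2.50 to 3.00 CPM) and Wnt7a in Klk6+ 4 at 1.27 CPM (others 0.0745 to 0.348 CPM). Without that library Wnt3 fell by 2.09 on the log2 scale (without Klk6+ 2), Sfrp2 by 3.27 (without WT 3) and Fzd9 by 1.92 (without WT 1), and each still passed. Without Klk6+ 4 the log2 fold change of Wnt7a was -0.87, which did not pass.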

How the results depend on the processing

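Over all alternatives 4 to 6 members were called higher and 18 to 25 lower, and the members' median log2 fold change lay between -0.66 and -0.41. The median over all genes lay between -0.059 and 0.045. The calls of 21 members were kept in every setting run; those of Wnt10b, Fzd1, Wnt7b and Wnt11 were lost in some, as given beside them, and without the low-count filter Wnt10b had an adjusted p of 0.0528 and Fzd1 of 0.0599. Lrp5 also passed with upper-quartile factors. No call changed direction. The count of genes with a genotype-by-sex interaction was 261 in DESeq2 and 0 to 4 when 1 library was left out, against 0.

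Signs turned for members that had not passed. With upper-quartile factors the log2 fold changes were -0.059 for Wnt3a, -0.054 for Fzd3, -0.012 for Wnt7a and -0.0041 for Ryk, and with library size only -0.014 for Wnt3a and -0.0091 for Fzd3. Wnt7a was -0.29 in limma-voom. Without Klk6+ 3 and 5, chosen after seeing the data, Wnt3a was -0.17, Notum 0.18 and Wnt5a 0.093. With 1 library left out, the ranges were -0.16 to 0.49 for Wnt3a, -0.20 to 0.59 for Wnt9b, -0.87 to 0.31 for Wnt7a, -0.083 to 0.14 for Fzd3, -0.28 to 0.066 for Fzd10, -0.10 to 0.35 for Rspo1 and -0.027 to 0.13 for Ryk. The causes were not tested. At 1 count, worth 0.0238 to 0.0377 CPM before TMM scaling, Wnt9b, Wnt7a and Rspo2 rest on few reads in some libraries. No paired analysis was possible because the replicate numbers were given in accession order and pair no mice.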

Other observations

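In all, 3 pairs of ligand genes lie within 100 kb of each other on GRCm38, and in each pair 1 gene passed and its neighbour did not. Wnt10a, which rose by 0.97 ± 0.22, is 6.19 kb from Wnt6 (-0.63 ± 0.30) on chromosome 1. Wnt9a, which fell by 1.90 ± 0.28, is 16.2 kb from Wnt3a (0.054 ± 0.38) on chromosome 11. Wnt3, which fell by 1.83 ± 0.23, is 24.3 kb from Wnt9b (0.11 ± 0.59) on the same chromosome. The differences within pairs were not tested. Wnt9b had 99 reads over the 10 libraries, and Wnt6 passed as lower in DESeq2 and limma-voom.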
